A study of Homo sapiens with 10 samples.

Results

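Phorbol esters such as PMA act on cells by taking the place of diacylglycerol. The genes described here belong to protein families with members that bind both. They are the 4 RasGRP exchange factors (RASGRP1, RASGRP2, RASGRP3 and RASGRP4), the classical protein kinase C (PKC) isoforms PRKCA and PRKCB, and the calcium-independent isoforms PRKCD, PRKCE, PRKCH and PRKCQ. They were picked by gene symbol, and the row with the highest mean was to be used for each. Each of the 10 symbols belonged to exactly 1 transcript cluster, so no choice between rows arose. These 10 clusters were set against the 21214 of 33297 clusters on the array that carry a gene symbol.

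The cells were THP-1, a human monocytic leukaemia line that takes on a macrophage form when exposed to PMA. All 10 cultures, the DMSO controls included, received PMA for 24 h and were then treated for 24 h. Punicalagin, a pomegranate ellagitannin, was given at 10 µM to 3 cultures (passages 6, 7 and 8). Myricetin was given to 2 cultures and quercetin to 2 others (passages 7 and 8 each), with no dose given in the sources used here, and DMSO, the solvent, to 3 cultures (passages 6, 7 and 8). Replicates 1, 2 and 3 of punicalagin and DMSO are these passages in that order. The cultures are passages of a single line, so errors and p-values measure the spread between passages and not between donors. RNA was read on Affymetrix Human Gene 1.0 ST arrays, and every level below is a log2 intensity, on which a step of 1 is a doubling of the signal. Brightness differs between probe sets, so differences were taken between treatments for the same gene. A percentile of brightness says only where a cluster stood on an array, and does not rank genes by their expression.

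Diacylglycerol is made at the plasma membrane when phospholipase C cuts a phosphoinositide, and it recruits proteins that carry a typical C1 domain. Classical PKC isoforms need diacylglycerol and calcium, and the isoforms delta, epsilon, eta and theta need diacylglycerol alone. RasGRPs load Ras or Rap GTPases with GTP. Phorbol esters occupy the same pocket of the C1 domain and are broken down slowly, which is why PMA is used to drive monocytic lines towards macrophages. RasGRPs and PKC theta are best known from lymphocytes, mast cells and platelets, and PKC alpha, beta and delta from myeloid cells as well.

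In brief, RASGRP3 and PRKCH were higher with all 3 compounds, by 3.52- to 9.93-fold for RASGRP3 and by 1.74- to 1.97-fold for PRKCH. PRKCB and PRKCD fell with quercetin. The other 6 genes passed the threshold in no comparison with DMSO. The promoters of the 4 genes that passed the threshold are printed first, so that their start regions can be set side by side. RASGRP3 and PRKCH rose with all 3 compounds, while PRKCB and PRKCD shared a fall past the threshold with quercetin only. With punicalagin and myricetin PRKCB differed by -0.47 and -0.49, and PRKCD by -0.19 and 0.13. Each run is the 250 bases before the RefSeq start of the gene (assembly GRCh38.p14), 5′ to 3′, at chr2:33436098-33436347 (plus strand) for RASGRP3, chr14:61321329-61321578 (plus strand) for PRKCH, chr16:23835733-23835982 (plus strand) for PRKCB and chr3:53160959-53161208 (plus strand) for PRKCD. For each gene the first start listed under its symbol was taken, and any other start was not read. Capitals mark matches on either strand to the searched motifs.
RASGRP3: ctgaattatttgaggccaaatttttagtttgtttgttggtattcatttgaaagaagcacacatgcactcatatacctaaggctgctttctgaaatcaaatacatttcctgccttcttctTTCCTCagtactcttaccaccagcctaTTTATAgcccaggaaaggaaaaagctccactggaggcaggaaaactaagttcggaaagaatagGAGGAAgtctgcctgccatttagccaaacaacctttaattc
PRKCH: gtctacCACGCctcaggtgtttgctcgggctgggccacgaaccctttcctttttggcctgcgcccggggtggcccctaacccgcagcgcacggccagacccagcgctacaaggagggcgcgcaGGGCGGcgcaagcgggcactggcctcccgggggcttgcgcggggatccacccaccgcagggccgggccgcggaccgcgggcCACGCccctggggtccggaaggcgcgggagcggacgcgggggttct
PRKCB: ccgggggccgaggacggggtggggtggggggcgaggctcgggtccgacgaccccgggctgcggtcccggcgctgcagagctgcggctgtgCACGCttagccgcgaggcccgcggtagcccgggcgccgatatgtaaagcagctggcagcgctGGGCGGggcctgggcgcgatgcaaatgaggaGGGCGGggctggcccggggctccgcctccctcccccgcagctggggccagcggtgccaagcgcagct
PRKCD: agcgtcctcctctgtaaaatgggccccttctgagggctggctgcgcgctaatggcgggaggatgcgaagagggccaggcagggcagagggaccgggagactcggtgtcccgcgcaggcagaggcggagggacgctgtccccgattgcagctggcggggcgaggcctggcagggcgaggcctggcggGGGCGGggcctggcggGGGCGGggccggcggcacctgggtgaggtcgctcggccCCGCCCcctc

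The motifs searched were TGACTCA (the phorbol ester response element bound by AP-1), TGACNNNGC (the antioxidant response element core), GCGTG (the xenobiotic response element core), GGGCGG (the GC box), GAGGAA (an ETS core of the PU.1 type) and TATAAA. The motifs differ in their letters and were chosen after the values of the genes had been seen. RASGRP3 differed from the other 3 in base composition, with 39.6% G and C and 1 CpG, against 75.2% and 30 for PRKCH, 77.2% and 30 for PRKCB, and 75.2% and 24 for PRKCD. The median over 35116 RefSeq promoters was 58.0% and 11 CpG. RASGRP3 held GAGGAA at 131 and 41 bases and TATAAA at 104 bases before its start, letters found in 23.6% and 10.7% of all promoters. PRKCH held GCGTG at 244 and 46 bases and GGGCGG at 127 bases before its start. PRKCB held GCGTG at 160 bases and GGGCGG at 98 and 67 bases, and PRKCD held GGGCGG at 64, 48 and 10 bases. GCGTG is in 32.2% and GGGCGG in 42.6% of all promoters. None of the promoters read for the 10 genes held TGACTCA, which 4.2% of promoters hold. TGACNNNGC, in 10.9% of promoters, was met in that of PRKCE. The arrays measure transcript level and not binding, so these matches are a description of the letters.

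RASGRP3, an exchange factor for both Ras and Rap that is best known from B cells, had the largest differences of the 10 genes. It was at 6.13, 6.19 and 6.83 with punicalagin, at 5.82 and 5.80 with myricetin and at 7.25 and 7.36 with quercetin, against 4.17, 4.10 and 3.71 with DMSO. Every treated array lay above every DMSO array, and the 2 quercetin arrays lay above all others. The means were 6.38 ± 0.39 with punicalagin (SD, n = 3), 5.81 ± 0.01 with myricetin (n = 2) and 7.31 ± 0.08 with quercetin (n = 2), against 3.995 ± 0.25 with DMSO (n = 3). The log2 difference from DMSO was 2.39 for punicalagin (SE 0.22, 95% interval 1.89 to 2.88), a 5.23-fold rise with an adjusted p of 0.00169 (limma, adjusted over all clusters tested). For myricetin it was 1.82 (SE 0.21, interval 1.35 to 2.28), a 3.52-fold rise with an adjusted p of 0.00347. For quercetin it was 3.31 (SE 0.21, interval 2.85 to 3.78), a 9.93-fold rise with an adjusted p of 1.45e-05. Ordered by size, this was the 20th largest rise of all clusters with punicalagin, the 32nd with myricetin and the 10th with quercetin. The cluster stood at the 18.0 to 24.1 percentile of brightness on DMSO arrays and at 53.9 to 80.4 on treated arrays. The table carries no detection calls, so it is not known whether the cluster stood above background on the DMSO arrays. The size of the rise is therefore less certain than its direction. By the analysis of variance of the paper's methods, with the same adjustment, RASGRP3 did not pass with punicalagin (adjusted p = 0.164) or myricetin (adjusted p = 0.142). The paper's results for punicalagin use a cut-off of p under 0.05 and more than 2-fold. Without adjustment, RASGRP3 passed that cut-off with both compounds in the same test.

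**Figure D1:**
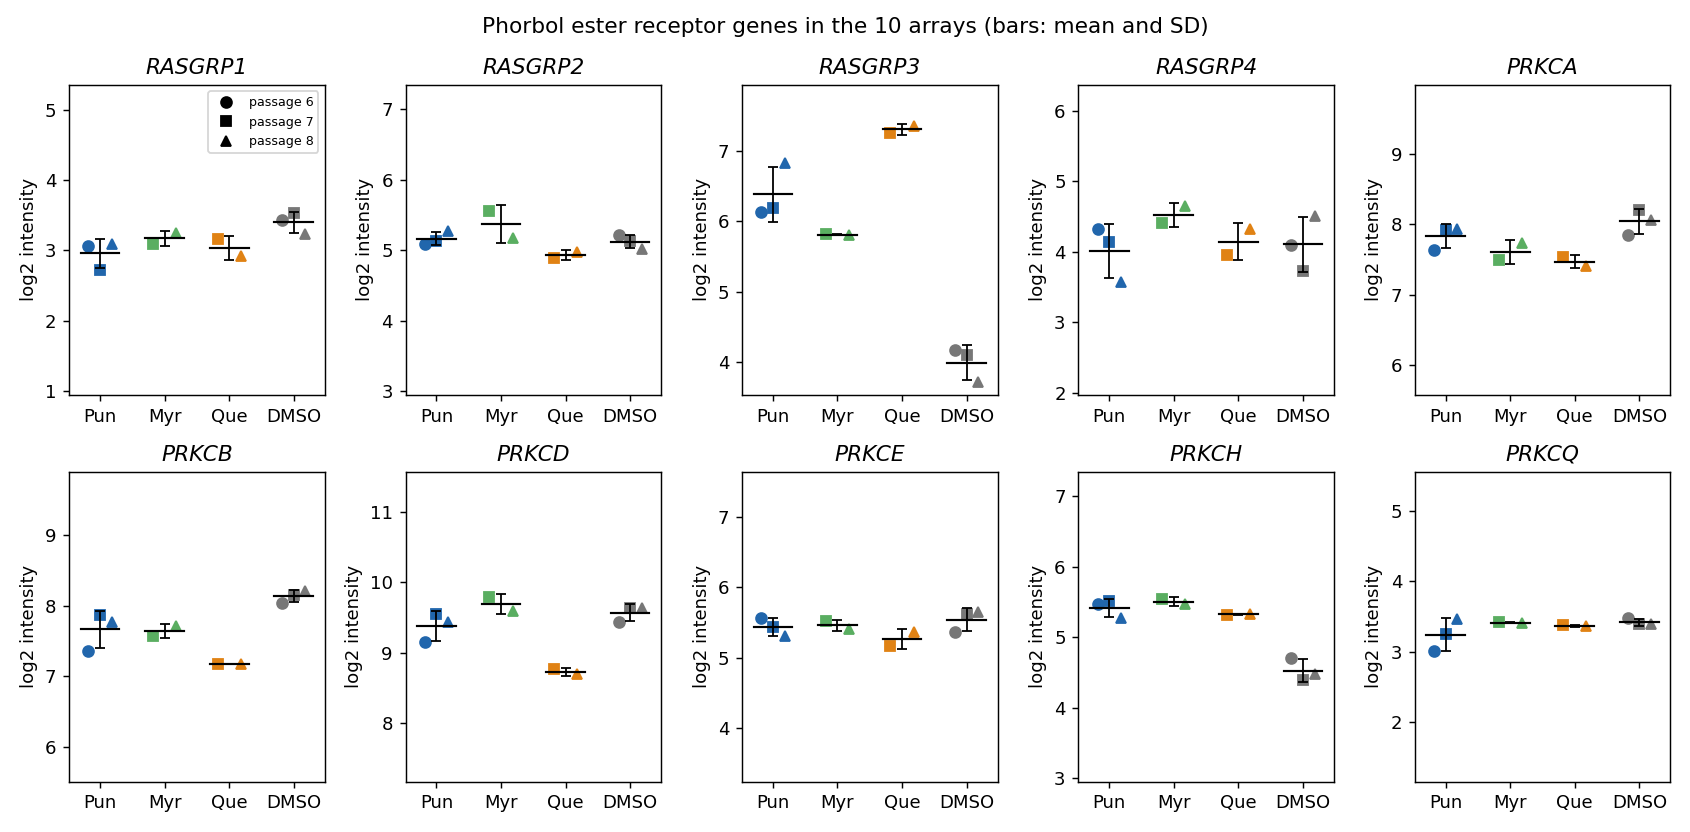
Log2 intensity (vertical axis, the same span in each panel) of the 10 phorbol ester receptor genes with punicalagin (Pun), myricetin (Myr), quercetin (Que) and DMSO. Points are arrays with the symbol giving the passage, and bars are the mean and SD. RASGRP3 and PRKCH are higher on every treated array than on any DMSO array, and PRKCB and PRKCD are lowest with quercetin.

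The rise of RASGRP3 was present in each passage. Within a passage, punicalagin minus DMSO was 1.96 at passage 6, 2.09 at passage 7 and 3.11 at passage 8. Myricetin minus DMSO was 1.72 and 2.09, and quercetin minus DMSO 3.15 and 3.65, at passages 7 and 8. The call held for punicalagin and quercetin when any single array was left out (highest adjusted p 0.0210 and 0.00103). For myricetin it was lost without the passage 7 array (adjusted p = 0.0855) or the passage 8 array (adjusted p = 0.0725), a fit in which the remaining array is assumed to vary like those of the other groups.

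The other RasGRPs did not pass the threshold with any compound. RASGRP1, the Ras activator downstream of the T cell receptor, was at 3.06, 2.73 and 3.09 with punicalagin, at 3.10 and 3.25 with myricetin and at 3.16 and 2.92 with quercetin, against 3.43, 3.53 and 3.23 with DMSO. The punicalagin and quercetin arrays were all below the DMSO arrays, and a myricetin array overlapped them. The differences from DMSO were -0.44 for punicalagin (adjusted p = 0.285), -0.22 for myricetin and -0.36 for quercetin (adjusted p = 0.326). The cluster lay between the 6.67 and 15.9 percentile of brightness on all arrays. RASGRP2, a Rap1 activator of platelets and neutrophils, differed from DMSO by 0.04, 0.25 and -0.19 with punicalagin, myricetin and quercetin. RASGRP4, first known from mast cells and myeloid leukaemia, differed by -0.10, 0.42 and 0.03, and its DMSO arrays alone ranged between 3.72 and 4.50.

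PRKCH (PKC eta), an isoform of epithelia and of the lymphoid and macrophage lineages, was the other gene that rose with all 3 compounds. It was at 5.48, 5.51 and 5.27 with punicalagin, at 5.55 and 5.47 with myricetin and at 5.32 and 5.33 with quercetin, against 4.71, 4.40 and 4.48 with DMSO. The 7 treated arrays spanned a narrow band that did not overlap the DMSO arrays. The difference was 0.89 for punicalagin (SE 0.15, interval 0.55 to 1.23, 1.86-fold, adjusted p = 0.0195). It was 0.98 for myricetin (SE 0.14, interval 0.67 to 1.29, 1.97-fold, adjusted p = 0.0118) and 0.80 for quercetin (SE 0.14, interval 0.48 to 1.11, 1.74-fold, adjusted p = 0.00860). Unlike RASGRP3, the gene was far from the top of the list, as the 517th largest rise with punicalagin and the 175th with myricetin. Within passages the difference was 0.77, 1.12 and 0.79 for punicalagin, 1.15 and 0.99 for myricetin, and 0.93 and 0.85 for quercetin.

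The calls of PRKCH were less stable than those of RASGRP3, although the direction held throughout. For punicalagin, leaving out replicate 2 or 3 of DMSO gave an adjusted p of 0.0954 or 0.0630. Leaving out replicate 1 or 2 of punicalagin gave 0.111 or 0.108. The adjusted p was 0.0608 with all clusters tested and 0.0652 on passages 7 and 8. For myricetin it was 0.0505 without DMSO replicate 2, and up to 0.221 when either myricetin array was left out. For quercetin it was 0.104 and 0.114 without either of its arrays, and 0.0554 when the quercetin and DMSO arrays were fitted alone. With the myricetin and DMSO arrays fitted alone, the adjusted p for myricetin was 0.135. By the methods' analysis of variance, adjusted, it was 0.175 for punicalagin and 0.114 for myricetin. The difference itself stayed between 0.73 and 1.07 with any single array left out.

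PRKCD (PKC delta), a kinase of the oxidative burst and of apoptosis in myeloid cells, fell with quercetin. It was at 9.15, 9.55 and 9.43 with punicalagin, at 9.80 and 9.59 with myricetin and at 8.77 and 8.69 with quercetin, against 9.43, 9.63 and 9.64 with DMSO. The quercetin arrays lay below all 8 others, and the arrays of the other 2 compounds overlapped those of DMSO. The difference for quercetin was -0.84 (SE 0.15, interval -1.18 to -0.50, 1.79-fold lower, adjusted p = 0.0102). For punicalagin it was -0.19 (adjusted p = 0.728) and for myricetin 0.13. The fall with quercetin missed the threshold by the methods' analysis of variance with the same adjustment (adjusted p = 0.0593). Within passages 7 and 8, quercetin minus DMSO was -0.86 and -0.95. The call was lost without the passage 7 or the passage 8 quercetin array (adjusted p of up to 0.145).

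PRKCE (PKC epsilon), known for its part in the macrophage response to endotoxin, and PRKCQ (PKC theta), the isoform of the T cell synapse, did not pass the threshold. PRKCE differed from DMSO by -0.10, -0.08 and -0.27 with punicalagin, myricetin and quercetin, the last with an adjusted p of 0.451. PRKCQ was at 3.01 to 3.47 on the punicalagin arrays, at 3.40 to 3.42 on the myricetin arrays and at 3.36 to 3.37 on the quercetin arrays, against 3.39 to 3.48 on the DMSO arrays. Its level was between the 8.53 and 14.8 percentile of brightness on every array.

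PRKCB (PKC beta), the classical isoform of B cells and phagocytes, fell with quercetin. It was at 7.36, 7.86 and 7.77 with punicalagin, at 7.57 and 7.71 with myricetin and at 7.17 and 7.18 with quercetin, against 8.04, 8.15 and 8.21 with DMSO. Every treated array was below every DMSO array, and the quercetin arrays were the lowest. The difference for quercetin was -0.96 (SE 0.16, interval -1.31 to -0.61, 1.94-fold lower, adjusted p = 0.00599). It missed the threshold by the methods' analysis of variance with the same adjustment (adjusted p = 0.0525). The differences for punicalagin (-0.47, adjusted p = 0.260) and myricetin (-0.49, adjusted p = 0.338) did not pass the threshold. Within passages, the difference was -0.68, -0.29 and -0.44 for punicalagin, -0.58 and -0.50 for myricetin, and -0.98 and -1.03 for quercetin. The quercetin call was lost without either of its arrays, with adjusted p values of 0.0779 and 0.0835.

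PRKCA (PKC alpha), the most widely expressed classical isoform, was at 7.63, 7.93 and 7.94 with punicalagin, at 7.49 and 7.73 with myricetin and at 7.54 and 7.41 with quercetin, against 7.86, 8.21 and 8.07 with DMSO. The myricetin and quercetin arrays lay below the DMSO arrays and the punicalagin arrays overlapped them. The difference for quercetin was -0.57 with an adjusted p of 0.0796, which missed the threshold. It passed with passage as a block (-0.67, adjusted p = 0.0292) and without DMSO replicate 1 (-0.67, adjusted p = 0.0247), as well as with array weights (adjusted p = 0.00643) and on passages 7 and 8 alone (adjusted p = 0.0202). The differences for punicalagin and myricetin were -0.21 and -0.43, with adjusted p values of 0.684 and 0.434.

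**Figure D2:**
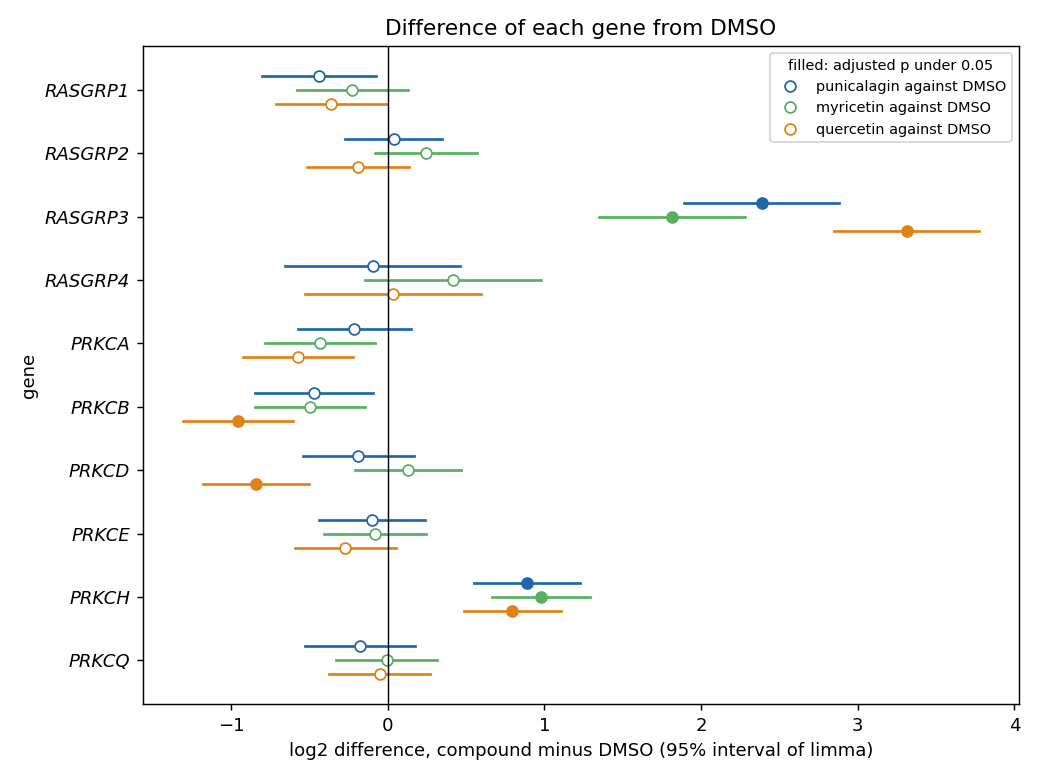
Log2 difference from DMSO (horizontal axis) of the 10 genes with punicalagin, myricetin and quercetin, as points with the 95% interval of limma and filled where the adjusted p was under 0.05. RASGRP3 has the largest difference with each compound, from 1.82 to 3.31, while the intervals of PRKCH for the 3 compounds overlap.

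Counted over the 10 genes, 2 rose and 0 fell with punicalagin, where 2.13% of all clusters rose and 0.198% fell. With myricetin 2 rose and 0 fell, where 0.438% of all clusters rose and 0.0707% fell. With quercetin 2 rose and 2 fell, where 2.8% of all clusters rose and 1.13% fell. At an unadjusted p under 0.05 there were 4 genes with punicalagin, 4 with myricetin and 6 with quercetin, where 12.3%, 8.62% and 14.8% of all clusters were. Groups that did not overlap were met for 2 genes above and 2 below DMSO with punicalagin (8.39% and 9.15% of all clusters). With myricetin there were also 2 above and 2 below (13.3% and 10.4% of all clusters). With quercetin there were 2 above and 6 below (14.6% and 17.2% of all clusters). The 6 were RASGRP1, RASGRP2, PRKCA, PRKCB, PRKCD and PRKCQ, although their differences spanned -0.05 to -0.96 and only those of PRKCB and PRKCD passed the threshold. The median difference of the 10 genes was -0.14, 0.06 and -0.23 with punicalagin, myricetin and quercetin, against -0.05, 0.003 and -0.04 over all clusters. The 3 comparisons share the DMSO arrays, so a gene's differences are not independent of each other.

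**Figure D3:**
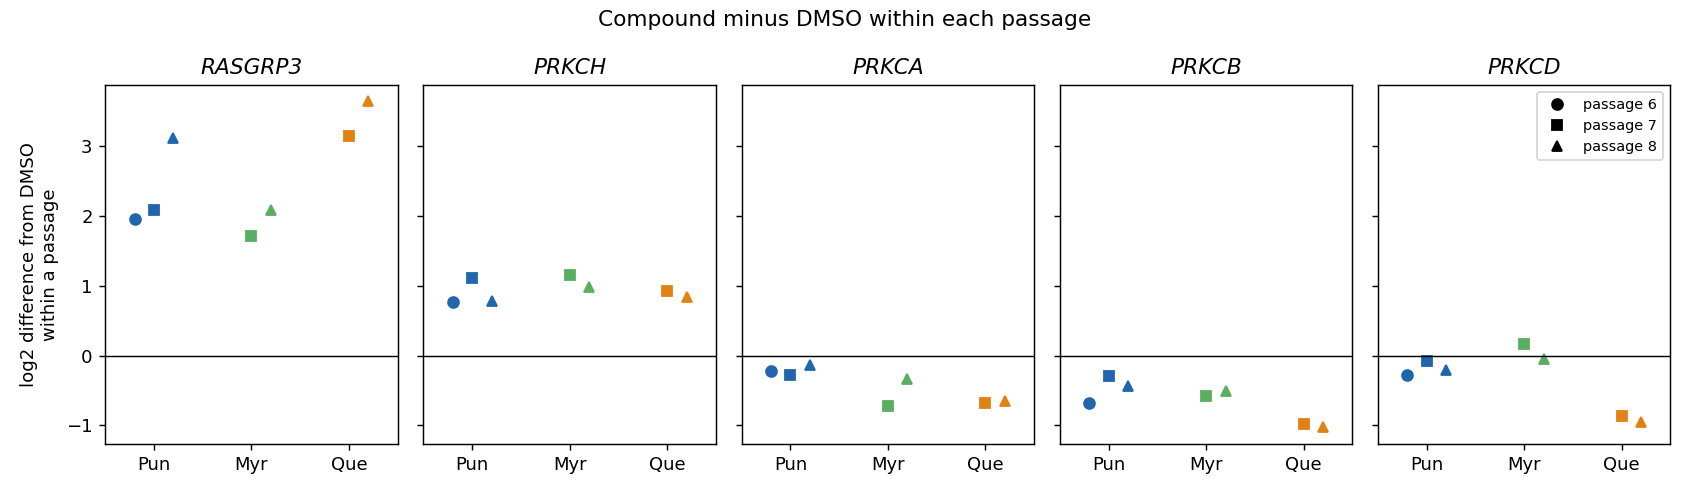
Log2 difference of compound minus DMSO within each passage (vertical axis, shared by the panels) for RASGRP3, PRKCH, PRKCA, PRKCB and PRKCD, with 1 point per passage and no point at passage 6 for myricetin and quercetin. All 7 points of RASGRP3 and PRKCH are above 0 and all 7 of PRKCA and PRKCB below 0, and for PRKCD the quercetin points alone lie below -0.80.

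The compounds were also compared with each other in 3 pairs, each with p adjusted over all clusters. Myricetin and quercetin are flavonols that differ by an additional hydroxyl group on myricetin. Their doses are not given, so a difference is one between the treatments as they were run. Of the 10 genes, 1 was higher and 1 lower with myricetin than with quercetin, where 0.537% and 1.16% of all clusters were. RASGRP3 was lower with myricetin, at 5.82 and 5.80, than with quercetin, at 7.25 and 7.36. The difference was -1.50 (SE 0.23, interval -2.01 to -0.99, adjusted p = 0.00879). PRKCD was higher with myricetin, at 9.80 and 9.59, than with quercetin, at 8.77 and 8.69. This difference was 0.97 (interval 0.59 to 1.34, 1.95-fold, adjusted p = 0.0170). Within passages 7 and 8 these differences were -1.44 and -1.56 for RASGRP3 and 1.03 and 0.90 for PRKCD. Both calls were lost without any of the 4 arrays of these compounds, with adjusted p values of up to 0.115 for RASGRP3 and 0.197 for PRKCD.

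No difference between myricetin and quercetin was shown for PRKCH (0.18, interval -0.16 to 0.52, adjusted p = 0.715) or for PRKCA (0.14, interval -0.24 to 0.52). The interval for PRKCB excluded 0 (0.46, interval 0.08 to 0.85), as did that for RASGRP2 (0.44, interval 0.08 to 0.79), but neither passed after adjustment (adjusted p = 0.264 and 0.254). PRKCB passed when the arrays of these 2 compounds were fitted alone (adjusted p = 0.0345), and both genes passed with array weights (adjusted p = 0.0295 and 0.0402).

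Punicalagin and myricetin differed in 0 of the 10 genes by limma, with 1 gene, RASGRP3, at an unadjusted p under 0.05 (difference 0.57, interval 0.11 to 1.04, adjusted p = 0.386). In this pair 0.519% of all clusters were higher with punicalagin and 0.00943% lower. Between punicalagin and quercetin, 1 gene was higher and 1 lower, where 2.06% and 1.85% of all clusters were. PRKCD was higher with punicalagin than with quercetin by 0.65 (interval 0.31 to 0.99, adjusted p = 0.0402). RASGRP3 was lower by 0.93 on the log2 scale (difference -0.93, interval -1.39 to -0.46, adjusted p = 0.0338), a call that was lost with passage as a block (adjusted p = 0.0619). The PRKCD call was lost with a trended and robust spread (adjusted p = 0.0754), all clusters tested (0.0862), median centring (0.0603) and the arrays of the 2 compounds alone (0.0534). That of RASGRP3 was lost with all clusters tested (adjusted p = 0.0841) and on passages 7 and 8 (0.0590). Both calls were also lost without some single arrays, 6 of 10 for RASGRP3 and 7 of 10 for PRKCD.

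The rest of the pathway was read through 9 lists with 93 genes, of which 76 were measured by a cluster with that symbol alone. With punicalagin and with myricetin, 0 of the 76 genes passed the threshold by limma. With quercetin 1 rose and 0 fell, where 2.8% of all clusters rose and 1.13% fell. At an unadjusted p under 0.05 there were 8 of 76 with punicalagin, 8 with myricetin and 21 with quercetin, where 12.3%, 8.62% and 14.8% of all clusters were. The medians over the 76 genes were -0.08, -0.04 and -0.07 with punicalagin, myricetin and quercetin, against -0.05, 0.003 and -0.04 over all clusters. The gene that rose was UNC13A, a synaptic vesicle priming factor whose C1 domain also binds diacylglycerol. It was at 4.98 and 5.10 with quercetin, against 3.77, 4.40 and 4.09 with DMSO, a difference of 0.96 (SE 0.17, interval 0.58 to 1.34, adjusted p = 0.00915). UNC13A missed the threshold by the methods' analysis of variance with the same adjustment (adjusted p = 0.0746). Its quercetin arrays were above all others, and the call was lost without either (adjusted p = 0.0786 and 0.137) and when the quercetin and DMSO arrays were fitted alone (adjusted p = 0.0793). It was also at 4.69 to 4.85 with punicalagin and at 4.56 to 4.61 with myricetin, differences of 0.67 and 0.50 that did not pass (adjusted p = 0.114 and 0.376).

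Upstream of the receptors, 11 phospholipase C genes, which make diacylglycerol, and 10 diacylglycerol kinases, which remove it, were measured. Of these, 0 passed the threshold against DMSO with any compound. The largest differences among them were -0.69 for PLCB3 with punicalagin (adjusted p = 0.181), 0.62 for PLCB2 with myricetin (adjusted p = 0.531), -0.61 for DGKE with quercetin (adjusted p = 0.163) and 0.53 for DGKG with myricetin (adjusted p = 0.631). The 4 atypical PKC and PKN kinases, which do not bind phorbol esters through their C1 domain or lack one, did not pass either, with PRKCZ (PKC zeta) at -0.56 for quercetin (adjusted p = 0.0900). Of 11 PKC substrates and partners 0 passed against DMSO. Between punicalagin and quercetin, 1 of these 11 was higher with punicalagin and 1 of the 10 diacylglycerol kinases lower. Of all clusters, 2.06% were higher and 1.85% lower in that pair. PLEK (pleckstrin), a PKC substrate of platelets and leukocytes, was at 10.2 on both quercetin arrays, against 9.69, 9.30 and 9.51 with DMSO, a difference of 0.71 that missed the threshold (adjusted p = 0.0566). MARCKS, the myristoylated membrane substrate of PKC, differed by 0.58 with quercetin (adjusted p = 0.314). With passage as a block, MARCKS (0.77, adjusted p = 0.0302) and DGKE (-0.74, adjusted p = 0.0411) passed with quercetin, and with array weights PLEK (adjusted p = 0.00211) and PRKCZ (adjusted p = 0.0413) passed too.

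On the Ras side, 0 of 10 other exchange factors, 0 of 8 Ras GTPase-activating proteins, 0 of 9 Ras and Rap GTPases and 0 of 6 RAF, MEK and ERK kinases passed with any compound. Among the exchange factors, the largest values were 0.63 for RAPGEF1, which acts on Rap1, and -0.49 for SOS1, the exchange factor of receptor tyrosine kinases, both with quercetin (adjusted p = 0.116 and 0.180). RASA3 differed by 0.80 with quercetin (adjusted p = 0.195) and RASAL3 by 0.70 with myricetin (adjusted p = 0.109), both being GTPase-activating proteins of blood cells. MRAS, a GTPase of the Ras family, differed by 0.79 with quercetin (adjusted p = 0.109). With array weights, RAPGEF1, SOS1 and MRAS with quercetin and RASAL3 with myricetin passed, with adjusted p values of 0.00384 to 0.0450. MAP2K1 (MEK1), the kinase of ERK, differed by -0.38 and KSR1, a scaffold of the cascade, by -0.37 with punicalagin (adjusted p = 0.461 and 0.347).

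**Figure D4:**
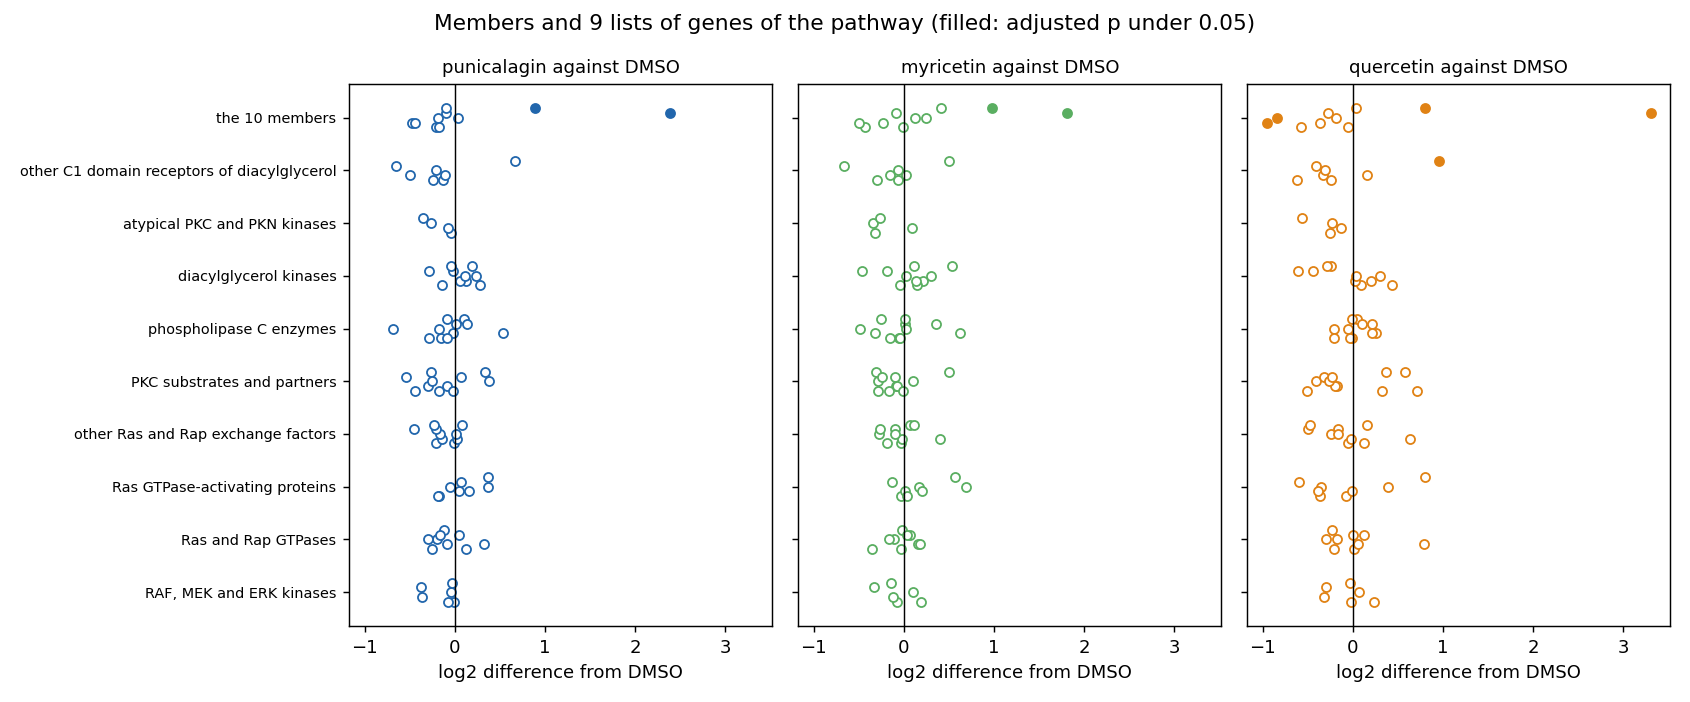
Log2 difference from DMSO (horizontal axis) with punicalagin, myricetin and quercetin for the 10 receptor genes and the 9 lists of genes around them, with 1 point per gene and filled points where the adjusted p was under 0.05. Outside the 10 receptor genes, the single filled point is UNC13A with quercetin at 0.96.

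The genes whose pattern was most like that of RASGRP3 were looked up among 19450 clusters of a single symbol. Over the 10 arrays the highest Pearson correlations were those of PSD3 (r = 0.992), COL6A1 (r = 0.987), FAM135B (r = 0.979), KANK1 (r = 0.973) and LONRF3 (r = 0.967). The arrays form 4 treatment groups and the genes share their libraries, so r mainly restates the order quercetin, punicalagin, myricetin and DMSO. COL6A1, a chain of collagen VI, had the largest differences of the 5 with punicalagin and quercetin, 1.30 and 1.99, and 0.85 with myricetin. KANK1, an adaptor of the cortical cytoskeleton, followed with 1.15 for punicalagin, 1.01 for myricetin and 1.62 for quercetin. PSD3, an exchange factor for ARF6, differed by 0.69, 0.52 and 0.92 in the same order. FAM135B differed by 1.11, 0.93 and 1.45, and LONRF3 by 0.87, 0.84 and 1.18.

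**Figure D5:**
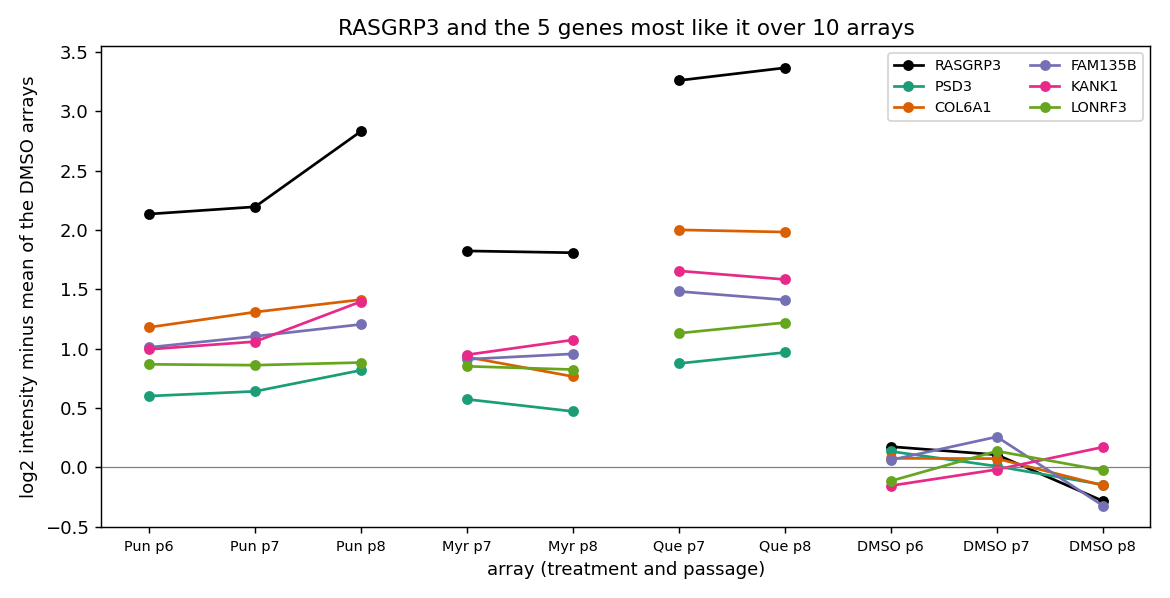
Log2 intensity minus the mean of the DMSO arrays (vertical axis) on each of the 10 arrays for RASGRP3 and the 5 genes with the highest correlation to it, with lines joining arrays of a treatment. RASGRP3 has the largest shift on each treated array, and all 6 genes are highest with quercetin.

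The label of the cells was set beside marker genes. The table holds no detection calls and brightness differs between probe sets, so this describes the arrays and does not establish the cell type. Of 11 macrophage markers 9 had a mean brightness above the median cluster, with ITGAX, TYROBP, CSF1R and CD68 among them, and the exceptions were MRC1 and CD163 at the 9.42 and 45.1 percentile. None of 7 T cell, 4 B cell, 3 mast cell and 5 platelet markers did so. The mean level of the 11 macrophage markers was 8.93 to 9.58 with punicalagin, 8.76 to 8.89 with myricetin and 9.03 to 9.15 with quercetin, against 8.55 to 8.79 with DMSO. Of the 11, CD163 (1.89) and FCER1G (1.16) rose with punicalagin, and CD163 (1.85) and CD68 (1.13) rose with quercetin. With myricetin 0 passed by limma, with 2 higher and 1 lower at an unadjusted p under 0.05. None was lower past the threshold, and the difference was positive for 9, 7 and 9 of the 11 with punicalagin, myricetin and quercetin. SPI1 differed by -0.47, -0.34 and -0.53 in the same order (adjusted p = 0.217, 0.611 and 0.117). LYZ was at 8.31 and 8.42 with myricetin, below all DMSO arrays (9.85, 9.58 and 8.83). The mean level of the 5 platelet markers was 4.51 to 4.68 with quercetin, against 4.08 to 4.23 with DMSO, a shift that lay in PPBP, which rose by 2.01. The other 4 platelet markers differed by -0.07 to 0.20 with quercetin and did not pass. These shifts run beside those of RASGRP3 and PRKCH with punicalagin and of RASGRP3, PRKCH, PRKCB and PRKCD with quercetin, and their part in them was not tested. In bulk RNA, a change in the cells that carry a transcript and a change in transcript per cell cannot be told apart.

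The 10 arrays had medians of 5.14 to 5.25 and mean correlations of 0.969 to 0.983 with the other arrays. The lowest was that of DMSO replicate 1 (passage 6), which stood apart from the other 9. Without it, RASGRP3 differed from DMSO by 2.47 with punicalagin, by 1.90 with myricetin and by 3.40 with quercetin, PRKCH by 0.98, 1.07 and 0.89, and PRKCB and PRKCD by -1.003 and -0.91 with quercetin. All of these stayed past the threshold, and PRKCA joined them as given above.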

How the data were processed

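RNA of THP-1 cultures was hybridized to 10 Human Gene 1.0 ST arrays (Affymetrix). The authors deposited log2 intensities, 1 per transcript cluster and array, made by RMA, which corrects background, makes intensity distributions equal and summarises probes. Expression Console, RMA and Partek 7.0 are the tools in the notes of the submitters. Whether all arrays were normalized together, and the genome build of the probes, are not given in the sources used here. No normalization was added. Gene symbols came from a platform probe table, which gives 1 symbol to 19460 of 33297 clusters, several to 1754 and none to 12083. The number of arrays limits the precision.

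Groups were compared with limma 3.58.1 under R 4.3.3, by lmFit and eBayes, over the 21214 clusters with a symbol, unfiltered, with Benjamini-Hochberg adjustment within each comparison and a threshold of 0.05. Punicalagin and DMSO were fitted on their 6 arrays, and the 5 other comparisons on all 10 arrays with a shared spread. Adjusted p values are from these fits unless another setting is named beside them. The fit was tested on simulated data. Errors are SD between arrays or limma's SE. Promoters are RefSeq sequences (GRCh38.p14), matched by symbol for all 10 genes, with the first listed start taken for each.

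Named were all 10 genes, from each pathway list up to 4 genes with the largest difference among those past the threshold in a comparison with DMSO, or up to 2 where none passed, and the 5 clusters that correlated best with RASGRP3. The genes, lists and motifs were chosen with earlier results of these data known, so their p values are no independent evidence for the family. UNC13A was the only list gene past the threshold against DMSO. Replicates 1, 2 and 3 of punicalagin and DMSO are passages 6, 7 and 8. Alternatives were passage as a block, trended and robust spread, array weights, a filter on dim clusters, and all clusters tested. Others were median centring, passages 7 and 8 only, another set of arrays in the fit, and leaving out each array. The methods' analysis of variance (the methods' t-test) was run on the arrays of each main fit. It is a test of 2 groups for punicalagin against DMSO, and otherwise takes its spread from all 10 arrays.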

Additional observations from a re-analysis of the deposited data

How the results depend on the processing

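RASGRP3 and PRKCH kept their rise and PRKCB and PRKCD their fall with quercetin under every alternative that gave a value. The share of all clusters past the threshold is given for the main fits alone. The counts under the alternatives therefore show how the calls of these genes moved, and cannot be set against all clusters. Against DMSO, the count of receptor genes past the threshold was 2 with punicalagin and became 1 with dim clusters left out, 1 with all clusters tested, 1 on passages 7 and 8, 0 with the methods' t-test adjusted and 1 with it unadjusted and over 2-fold, and it ranged between 1 and 2 with single arrays left out. With myricetin it was 2 and became 1 without dim clusters, 1 with the 2 groups alone, and 0 and 1 with the methods' t-test adjusted and unadjusted (range 0 to 2 with single arrays left out, 0 without either myricetin array). With quercetin it was 4 and became 3 without dim clusters, 3 with the 2 groups alone (PRKCH lost), 5 with array weights and on passages 7 and 8 (PRKCA gained), and 2 and 1 with the methods' t-test adjusted and unadjusted (range 1 to 5 with single arrays left out, 1 without either quercetin array). The filter on dim clusters left 4 of the 10 genes in the test, RASGRP3, PRKCA, PRKCB and PRKCD. It used the mean over all 10 arrays, and RASGRP3 (mean 5.74) was dim on the DMSO arrays. RASGRP3 thus stayed in through its treated arrays, and this setting is no separate test of it.

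Between myricetin and quercetin the count was 2 and became 4 with array weights, 3 with the 2 groups alone (PRKCB gained), 1 with all clusters tested, and 0 and 1 with the methods' t-test adjusted and unadjusted (range 0 to 2 with single arrays left out). Between punicalagin and quercetin it was 2 and became 1 with passage as a block, 1 with a trended and robust spread, 0 with all clusters tested, 1 with median centring, 1 with the 2 groups alone, and 0 with the methods' t-test adjusted or unadjusted (range 0 to 2 with single arrays left out). Between punicalagin and myricetin it was 0 throughout. PRKCH was not among the genes tested with dim clusters left out. The over 2-fold setting drops every difference under 1 on the log2 scale, whatever its p. The cause of the other changes was not tested, and some fits also held fewer arrays. Same-passage arrays of punicalagin and DMSO deviated together with r of -0.189 to 0.229 (3 pairs), against -0.349 to 0.273 in 6 pairs of different passages. No closer match within a passage was seen, but these few pairs share arrays and cannot exclude pairing. With passage as a block the counts against DMSO were 2 with punicalagin, 2 with myricetin and 5 with quercetin.

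Signs turned only for differences near 0. For PRKCQ, myricetin against DMSO was 0.0147 with array weights and 0.0235 on passages 7 and 8, and myricetin against quercetin -0.00078 with median centring. Punicalagin against myricetin was -0.0491 for PRKCB with array weights, and for PRKCE 0.00238 with array weights and 0.0251 with median centring. With single arrays left out, punicalagin against DMSO ranged from -0.0125 to 0.0843 for RASGRP2 and from -0.29 to 0.12 for RASGRP4. Myricetin against DMSO ranged from -0.0215 to 0.0235 for PRKCQ, and quercetin against DMSO from -0.16 to 0.23 for RASGRP4. Punicalagin against myricetin ranged from -0.0746 to 0.17 for PRKCB and from -0.0834 to 0.0434 for PRKCE, and punicalagin against quercetin from -0.20 to 0.0443 for RASGRP1 and from -0.31 to 0.0887 for RASGRP4. The mean over several clusters of a gene was not run, because each gene has 1 cluster. RASGRP1, RASGRP2, RASGRP4, PRKCE, PRKCH and PRKCQ had a mean below the median cluster, and RASGRP3 was as dim on the DMSO arrays, which limits what their differences can show.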
